A study of Oryza sativa Indica Group with 10 samples.

Results

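The comparison described here set rice seedlings carrying an OsbZIP48 knock-down construct, and described by the submitters as looking like the wild type, against seedlings carrying the pANDA vector. It rests on 4 of the 10 arrays of the series, 2 per group, chosen by their labels alone, and on all 57258 probe sets that are not array controls. All seedlings were of the Indica cultivar Pusa Basmati 1 and were grown in light at 28 °C on a basal medium after their seeds had imbibed water. The pANDA group is the vector control, pANDA being a vector made to express hairpin RNA in rice. The wild-type-like knock-down group (KD wild-type-like) carries the OsbZIP48 knock-down transgene, as does a second group, labelled as lethal (KD lethal). The remaining 2 groups, an OsbZIP48 over-expression group (OE) and the vector control B4NU, serve here only for comparison and for the estimate of spread. Each group had 2 biological replicates. The number of transgenic lines, the pooling of seedlings and the promoters of the constructs are not given in the sources used here, nor is it stated which vector belongs to which transgene, so pANDA was taken as the control of the knock-down for its use in RNA interference. Reporter probe sets described below differed between pANDA and both knock-down groups, so whether the groups differ in the knock-down alone is not known. The age is 10 days in the sample labels and 7 days in the design text. The tissue is labelled as whole seedling, but the extraction protocol mentions roots.

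OsbZIP48 encodes a basic leucine zipper transcription factor related to HY5 of Arabidopsis. HY5 acts downstream of the photoreceptors, accumulates in light, and binds the promoters of many light-responsive genes, and its loss in Arabidopsis gives long hypocotyls in light. The same family of factors touches abscisic acid responses, cell elongation and chloroplast development in that species. The annotation used here pairs OsbZIP48 with no probe set, so the degree of knock-down was not measured, and the labels could not be checked against the targeted gene.

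The tissue label was checked against marker genes. Of 6 shoot markers, 5 were above the floor in at least 1 of the 2 groups (the floor is the band within 0.5 log2 of the lowest value of the normalization set, where a probe set has no measurable level). The Rubisco small subunit gene OsrbcS read 12.50 and 12.49 in pANDA and 12.49 and 12.75 in KD wild-type-like, in log2 units as deposited. The light-harvesting gene CAB2R read 12.80 and 12.93 against 12.76 and 12.94. Of 12 root markers, 7 were above the floor, among them the root silicon transporter genes Lsi1 (9.76 and 9.68 against 10.03 and 9.78) and Lsi2 (8.32 and 8.62 against 8.60 and 8.93), while IRT1, NRT2.2, OsPT6, OsSHR1 and OsSCR1 were at the floor on all 4 arrays. Markers of both organs were thus bright in both groups, and no marker of either list was called in the main fit. Of the 7 root markers above the floor, 2 were higher and 5 lower in KD wild-type-like, with a median of -0.67 (log2). NAS1 and NAS2, described below, were among the lower ones. In whole seedlings, fewer cells of a type and less RNA per cell cannot be told apart.

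The 4 arrays were much alike. Over the 16323 probe sets with a mean more than 1 (log2) above the lowest value, the log2 differences between 2 arrays had an SD of 0.2092 within pANDA and 0.3639 within KD wild-type-like. Between the groups the SD was 0.4574 to 0.4748, and between KD wild-type-like and KD lethal arrays it was 1.457 to 1.528. The median difference over these probe sets was -0.013. The difference between the groups was thus wider than that within either, and much narrower than that between the knock-down groups. Array controls also varied. The mean level of the hybridisation controls, which are added in fixed amounts, was 8.88 on KD wild-type-like replicate 2 and 7.06 to 7.79 on the other 9 arrays, and the mean excess of 3′ over more 5′ control probe sets was 2.09 and 2.13 in pANDA and 1.90 and 2.44 in KD wild-type-like. The part of these in the results was not tested.

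In a limma fit with Benjamini-Hochberg adjustment over all probe sets, 139 probe sets passed an adjusted p of 0.05, which is 0.243% of those tested. Of these, 56 were higher (0.0978%) and 83 lower (0.145%) in KD wild-type-like. In 59 of them both groups lay at the floor, where no level is measured, so the description below keeps to the other 80, of which 26 rose and 54 fell. Of these 80, 57 were paired with exactly 1 gene and 11 with a gene that has a name. An unadjusted p under 0.05 was reached by 2819 probe sets, or 4.92%, close to the share that the threshold itself would pass. That share includes the 65.9% of probe sets at the floor in both groups. The same threshold was passed by 1545 of 17905 genes, by 1146 of 16323 probe sets when dim ones were left out, and by 4813 of 57258 on the 4 arrays alone. The groups did not overlap in 14964 probe sets (26.1%), so that a lack of overlap alone sets no gene apart. A difference of at least 2-fold in the means, at any p, was found in 377 probe sets (0.658%), of which 157 were higher and 220 lower. Among 17905 genes, each represented by its brightest probe set, 65 were called (0.363%), of which 24 rose (0.134%) and 41 fell (0.229%). The groups did not overlap in 8448 of these genes. Of the 13499 genes above the floor in at least 1 group, 6365 were higher and 7134 lower. The count of called probe sets was 20 when only these 4 arrays were fitted, and 2 of the 139 were among them. It was 36 of 16323 (22 higher, 14 lower) when dim probe sets were left out, with 29 of the 139 among them. Leaving out either KD wild-type-like array gave more calls, mostly higher. Leaving out either pANDA array also gave more calls, but mostly lower. The total and its split thus depended on which group was reduced to 1 array.

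**Figure D1:**
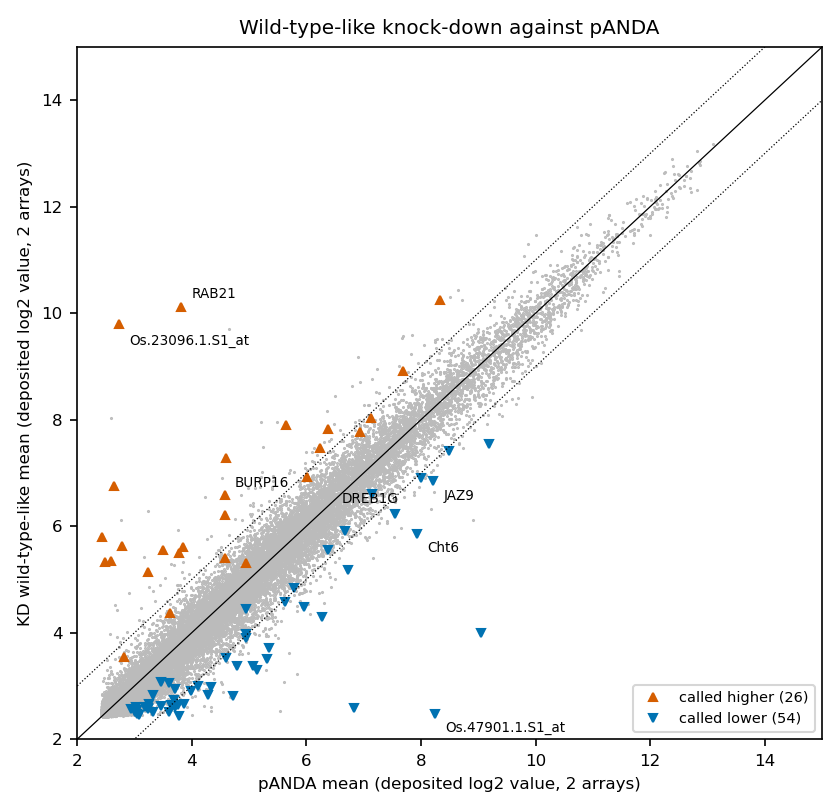
Mean log2 value in pANDA (horizontal) against that in KD wild-type-like (vertical) for every probe set, 2 arrays a group, with the line of equality and dotted lines at a 2-fold difference. The 26 probe sets called higher (triangles up) and the 54 called lower (triangles down) with at least 1 group above the floor lie off a narrow diagonal, and RAB21 and a pair of probe sets without a gene lie farthest from it.

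The largest called rise of a named gene was that of RAB21, a dehydrin gene induced by abscisic acid and drying. RAB21 read 3.85 and 3.76 in pANDA and 10.17 and 10.08 in KD wild-type-like. Both knock-down arrays were thus far above both vector arrays, and the difference was 6.32 ± 0.16 (log2, SE), a 79.9-fold rise (adjusted p = 0.000414). A further probe set of RAB21 differed by 5.07 without passing (adjusted p = 0.0621). In KD lethal the gene stood at 11.47 and 11.29, higher than in the wild-type-like seedlings by 1.25 (log2; adjusted p = 0.00819), and in OE at 11.47 and 11.91 against 5.94 and 5.71 in B4NU. RAB21 was therefore high in all 3 groups with an OsbZIP48 transgene and low or moderate in both vector groups, and the difference between the knock-down and the over-expression effect, 0.45, was not called (adjusted p = 0.789).

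Other genes linked to drying and late embryo development lay in the same direction without passing. Of the 11 genes of that list 1 rose and none fell, and the median difference was 0.68 (log2), beside 0 over all genes. Of the 10 members above the floor, 9 were higher, beside 6365 of 13499 over all genes. RAB16B, a dehydrin gene of the family of RAB21, read 3.23 and 3.24 in pANDA against 6.33 and 6.25, with no overlap, yet its difference of 3.05 had an adjusted p of 0.507 in the fit whose spread is shared over all groups. Its SD was 0.01 and 0.06 in these groups, 0.81 in KD lethal and 1.68 in OE. LEA19, a late embryogenesis abundant protein gene, read 4.53 and 4.52 against 6.86 and 6.96 (adjusted p = 0.248), and PM1 read 2.71 and 2.69 against 4.40 and 4.45 (adjusted p = 0.125). These 3 genes were tight within both groups. By contrast salT, a salt-induced lectin gene, differed by 0.24 here and by 4.16 in KD lethal. LEA19 and RAB16B were called, with RAB21, when KD lethal replicate 2 and OE replicate 1 were left out, and PM1 as well when only the 4 arrays and no dim probe sets were used, a setting chosen after the data were seen. Probe sets of the similar RAB16 genes could share signal, which is not resolved here. The 72 genes of abscisic acid synthesis and signalling had a median of 0.08, and 0 of them were called.

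**Figure D2:**
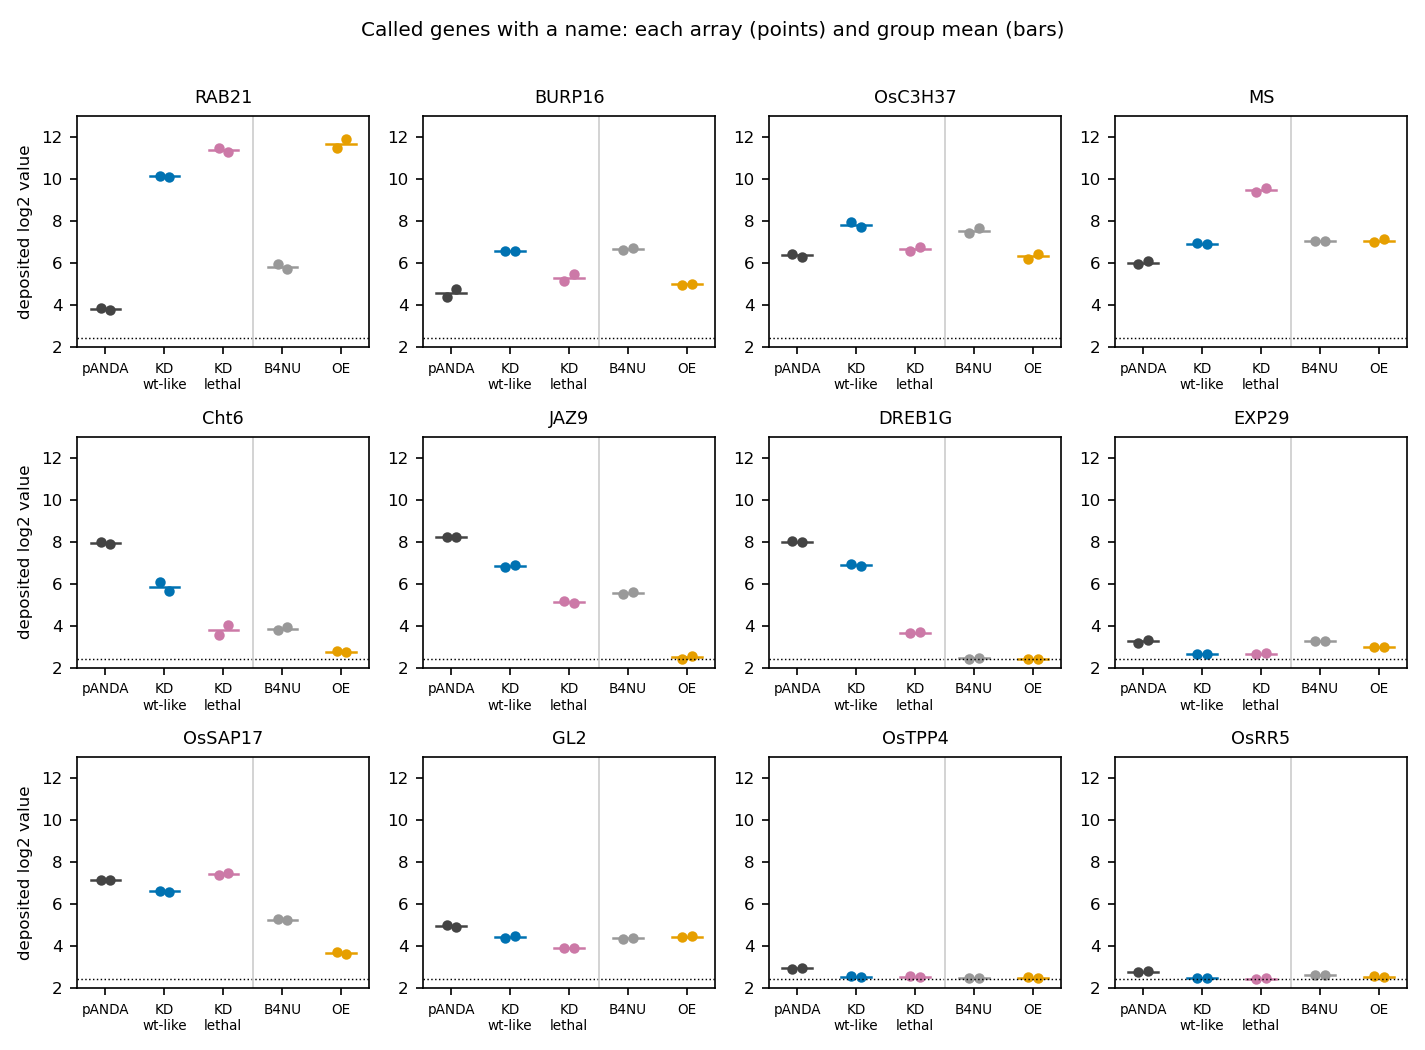
Deposited log2 value of each array (points) and group mean (bars) for 12 of the genes with a name that were called between pANDA and KD wild-type-like, OC-VI not shown. The dotted line is the lowest value of the tables, and the vertical line separates the 2 normalization sets, across which levels are not comparable. RAB21 stands near 10 in KD wild-type-like and near 4 in pANDA, and Cht6, JAZ9 and DREB1G step down from pANDA to KD wild-type-like to KD lethal.

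Of the other named genes that rose, BURP16, a member of the plant-specific BURP domain family, rose 4.03-fold, from 4.37 and 4.78 to 6.57 and 6.60 (adjusted p = 0.0203). Its level in KD lethal, 5.15 and 5.48, lay between, lower than in the wild-type-like seedlings by 1.27 (adjusted p = 0.00694). In OE against B4NU it fell by 1.69, and the knock-down and over-expression effects differed by 3.70 (adjusted p = 0.00728). It did not pass without either B4NU array (adjusted p = 0.0849) or with the 6 pANDA and KD arrays (0.171). Of the 8 BURP genes no other was called, and their median was 0. OsC3H37, a CCCH zinc finger gene, read 6.44 and 6.31 in pANDA and 7.94 and 7.72 in KD wild-type-like, a 2.74-fold rise (adjusted p = 0.0402). It too fell in OE, by 1.23, and the 2 effects differed by 2.68 (adjusted p = 0.0127). Its rise did not pass without pANDA replicate 2 (adjusted p = 0.062), without either array of B4NU, OE or KD lethal (0.0504 to 0.0946), with the 6 pANDA and KD arrays (0.127) or without dim probe sets (0.0583). OsC3H37 was 1.15 lower in KD lethal than in KD wild-type-like (adjusted p = 0.00666). Among the 50 genes of its family 1 rose and the median was 0.04.

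The rise of MS, which encodes malate synthase of the glyoxylate cycle by which seedlings use stored fat, was small, at 0.92 (log2; adjusted p = 0.0356), from 5.94 and 6.09 to 6.94 and 6.93. It did not pass with the 6 pANDA and KD arrays (adjusted p = 0.162), without dim probe sets (0.217), with an intensity trend (0.0507) or without either B4NU or either KD lethal array (0.132 and 0.0583). ICL, which encodes the other enzyme peculiar to that cycle, isocitrate lyase, read 3.21 and 3.31 against 4.92 and 4.80 (adjusted p = 0.531). In KD lethal the differences from pANDA were larger, 3.47 for MS and 6.07 for ICL, and for MS the knock-down groups differed by 2.55 (adjusted p = 0.00014). In OE against B4NU the differences were 0.01 for MS and -0.05 for ICL. Of rises paired with a gene that has only an identifier, LOC4340728 was the largest, from 2.47 and 2.82 to 6.72 and 6.81 (at least 17.4-fold, since pANDA lay at the floor), followed by LOC4344438, from 2.44 and 2.51 to 5.17 and 5.48 (at least 7.20-fold).

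The largest called fall of a named gene was that of Cht6, a chitinase gene of pathogen defence. Cht6 fell from 7.96 and 7.89 in pANDA to 6.07 and 5.64, or by 2.07 ± 0.20 (log2, SE; adjusted p = 0.0356), and read 3.57 and 4.02 in KD lethal, where it was lower by 2.06 than in KD wild-type-like (adjusted p = 0.00271). Of 12 chitinase and pathogenesis-related genes 1 fell, none rose, and the median was 0.03. PBZ1, another defence gene, read 6.44 and 6.77 against 5.30 and 5.79 (adjusted p = 0.978), and its value in KD lethal was higher than in pANDA by 3.36. The call of Cht6 did not pass without pANDA replicate 2 (adjusted p = 0.05), without either array of B4NU (0.128) or OE (0.0654), with the 6 pANDA and KD arrays (0.215) or without KD lethal replicate 2 and OE replicate 1 (0.0756).

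JAZ9 encodes a repressor of the jasmonate response, one of the proteins degraded when the hormone is perceived, whose genes jasmonate itself induces. JAZ9 read 8.21 and 8.22 in pANDA and 6.80 and 6.90 in KD wild-type-like, a 2.58-fold fall (adjusted p = 0.00679). In KD lethal it fell further, to 5.20 and 5.07 (difference between the knock-down groups -1.71, adjusted p = 0.000255), and in OE against B4NU by 3.05. Of 13 JAZ genes 1 fell and 0 rose, and JAZ9 was not called with the 6 pANDA and KD arrays. The median was -0.39, and 10 of the 12 above the floor were lower. JAZ8 (6.17 and 6.23 against 5.26 and 5.21, adjusted p = 0.258), JAZ5 (3.17 and 3.18 against 2.53 and 2.53, adjusted p = 0.272) and JAZ13 (11.17 and 11.25 against 10.59 and 10.34, adjusted p = 0.532) did not overlap between the groups. The same held for 8448 of all 17905 genes. JAZ8 was called with JAZ9 when KD lethal replicate 2 and OE replicate 1 were left out. Among 22 genes of jasmonate synthesis and signalling 0 were called, with a median of -0.09. The nearest to the threshold were OPR5 (7.80 and 7.79 against 8.36 and 8.27, adjusted p = 0.0783) and AOS, the allene oxide synthase gene (5.36 and 5.31 against 4.33 and 4.28, adjusted p = 0.0783), in opposite directions. AOS was called lower with the 6 pANDA and KD arrays and on the 4 arrays without dim probe sets. COI1B, a jasmonate receptor gene, read 6.68 and 6.91 against 7.72 and 7.65 (adjusted p = 0.147).

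DREB1G, of the CBF and DREB1 transcription factors that act in the cold response, also fell. It read 8.02 and 7.97 in pANDA and 6.96 and 6.86 in KD wild-type-like, a fall of 1.09 ± 0.04 (log2, SE; adjusted p = 0.00173). In KD lethal it stood at 3.66 and 3.69, a further 3.23 lower (adjusted p = 1.53e-05), while B4NU and OE were both at the floor. Replicates hardly vary at the floor, so the shared spread, and with it the SE and p of DREB1G, can be too small. Of the 7 DREB genes 1 fell, with a median of -0.11, and DREB1G was not called when dim probe sets were left out. DREB1B (9.58 and 9.51 against 9.08 and 9.33) and DREB1A (7.89 and 7.98 against 7.68 and 7.69) differed by -0.34 and -0.25 without passing (adjusted p = 0.798 and 0.978).

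Expansins loosen cell walls during growth, and xyloglucan enzymes remodel wall polymers. Of 30 such genes 1 fell and 0 rose, with a median of -0.33 beside 0 over all genes. Of the 23 above the floor, 19 were lower in KD wild-type-like, beside 7134 of 13499 over all genes. The called member was the dim EXP29, which went from 3.20 and 3.33 to 2.66 on both arrays, at the floor (at least 1.52-fold, adjusted p = 0.0123). EXP29 was not called with the 6 pANDA and KD arrays or with an intensity trend. Brighter members did not pass. EXPB2 read 5.70 and 5.69 against 3.79 and 3.42 (adjusted p = 0.0903), EXP5 read 8.29 and 8.30 against 7.53 and 7.47 (adjusted p = 0.0834), and EXPB17 read 6.12 and 5.86 against 5.12 on both arrays (adjusted p = 0.184). When dim probe sets were left out EXPB2 was the one called, and EXP5 was the one called on the 8 arrays other than KD lethal replicate 2 and OE replicate 1. Root markers went both ways. Lsi1 and Lsi2 were slightly higher, as given above, whereas NAS1 and NAS2, nicotianamine synthase genes of iron uptake, read 8.96 and 8.89 against 7.85 and 7.77, and 8.05 and 8.08 against 6.97 and 6.83 (adjusted p = 0.893 and 0.281). NAS1 was called lower with the 6 pANDA and KD arrays, and both were on the 4 arrays without dim probe sets. The median of the 12 root markers was -0.18, 5 of the 7 above the floor were lower (median -0.67), and their part in the differences was not tested.

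The remaining named genes differed by less than 2-fold. GL2, a growth-regulating factor gene that sets grain size, fell by 0.50 (adjusted p = 0.0334), from 5.0 and 4.91 to 4.40 and 4.5. OsSAP17, which encodes a stress-associated zinc finger protein, fell by 0.54 (adjusted p = 0.0245), from 7.15 on both arrays to 6.63 and 6.60. OsTPP4, a trehalose phosphate phosphatase gene, went from 2.94 and 2.95 to the floor (adjusted p = 0.0166), and the call of the cytokinin response regulator OsRR5 (adjusted p = 0.0302) lay wholly within the floor, as did that of OC-VI (adjusted p = 0.0408), named after its values were seen. GL2 and OsSAP17 did not pass with the 6 pANDA and KD arrays, without dim probe sets or without either B4NU array (adjusted p = 0.0863 to 0.631). Of falls paired with an identifier alone, LOC4324844 read 6.21 and 6.36 in pANDA and 4.30 on both knock-down arrays (3.95-fold, adjusted p = 0.00849), and LOC4324968 read 5.24 and 5.03 against 3.53 and 3.07 (3.55-fold, adjusted p = 0.0393).

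Lists of light-related pathways held no called genes. Of 12 genes of the photosynthetic light reactions 0 were called, with a median of -0.01, and of 8 chlorophyll synthesis genes 0, with a median of -0.09. In KD lethal against the same pANDA arrays the medians of those lists were -2.69 and -2.49. The 13 Calvin cycle and photorespiration genes had a median of 0.07 and the 16 chloroplast biogenesis genes 0.17, with 0 calls in both. The 5 photoreceptor genes had a median of 0.35 and 0 calls. PhyB, a phytochrome gene, read 5.38 and 5.41 against 6.49 and 6.08 (adjusted p = 0.546), and PHYA read 7.04 and 6.82 against 7.64 and 8.15 (adjusted p = 0.981). The 20 bZIP genes had a median of 0.12, the 14 gibberellin genes 0, the 62 auxin genes 0 and the 19 clock and flowering genes 0.03, with 0 calls in each. Among 23 genes of small RNA and gene silencing pathways, which process hairpin RNA, 0 were called, with a median of -0.07, although 15 of the 18 above the floor were lower. AGO1A, an Argonaute gene, read 5.76 and 6.17 against 5.33 and 5.28 (adjusted p = 0.324). The 6 WRKY genes had the lowest median of the lists, -0.47, with 0 calls, and OsWRKY24 read 8.13 and 8.21 against 6.90 and 7.11 (adjusted p = 0.302). In the limma fit an unadjusted p under 0.05 was reached by 0 light reaction and 0 chlorophyll genes, 2 Calvin cycle, 2 chloroplast biogenesis and 1 photoreceptor gene, 1 bZIP, 1 gibberellin, 3 auxin and 5 clock genes, 3 silencing and 2 WRKY genes. Of the lists described above, it was reached by 5 of 11 dehydration, 6 of 13 JAZ, 8 of 30 expansin and xyloglucan, and 2 of 7 DREB genes. The same held for 2 of 12 chitinase and pathogenesis-related, 3 of 12 root marker and 2 of 2 glyoxylate cycle genes. Among abscisic acid genes it was reached by 7 of 72, among jasmonate genes by 7 of 22, among CCCH genes by 5 of 50 and among BURP genes by 1 of 8. Over all 17905 genes it was reached by 1545. In all, 33 of the 44 lists had no called member and 11 had 1. Of the 1052 listed genes 10 were called, 4 higher and 6 lower. A change of 2-fold was recovered in 8.96% and one of 4-fold in 31.3% of simulated cases with this design, so most changes of that size would not be called.

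**Figure D3:**
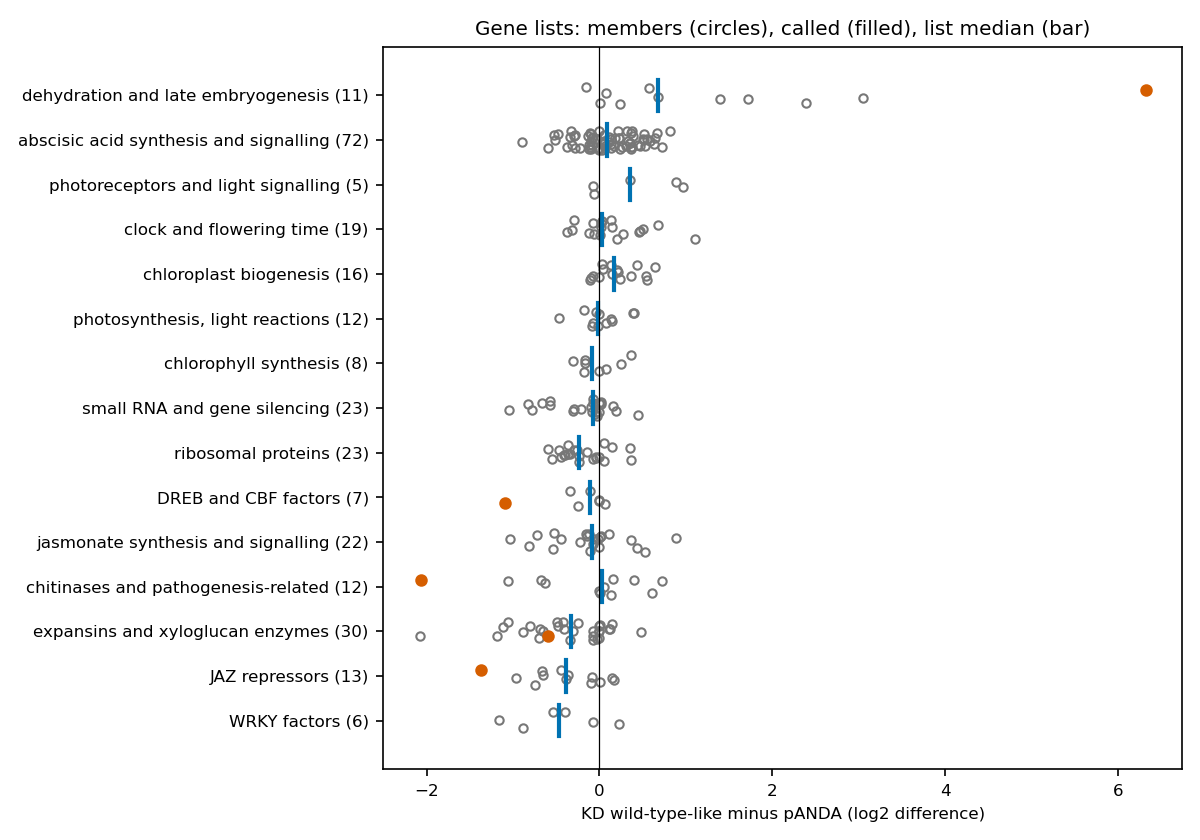
Difference between KD wild-type-like and pANDA (log2) for each member of 15 gene lists, with the number of genes in brackets, called members filled and a bar at the list median. The dehydration list reaches from -0.16 to 6.32 with a median of 0.68, and the light reaction genes lie close to 0.

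Probe sets whose identifiers begin with RPTR, the prefix for reporter and marker sequences that the array carries beside rice genes, also differed between the vector and the knock-down group. Of 64 such probe sets, 60 were at the floor on all 10 arrays and 4 were not, and 3 of the 139 calls were among the 4. These probe sets and the other probe sets without a gene that are named here were chosen after their values were seen, and the sequence behind each identifier is not annotated in the files. RPTR-Os-A06498-1_at read 8.94 and 9.13 in pANDA and 4.03 and 3.94 in KD wild-type-like (33.1-fold lower, adjusted p = 0.000891). RPTR-Os-K01193-1_at read 6.80 and 6.85 in pANDA and was at the floor, 2.58 on both arrays, in KD wild-type-like (at least 18.9-fold lower, adjusted p = 2.64e-05). In the other direction, RPTR-Os-U57609-2_s_at was at the floor in pANDA and read 5.61 and 6.0 in KD wild-type-like (at least 10.3-fold higher, adjusted p = 0.00352). The KD lethal arrays read 4.14 and 3.67, 2.65 and 2.59, and 5.99 and 5.69 for these probe sets in turn, and the difference between the knock-down groups was called in none (adjusted p = 1, 0.946 and 1). Levels of K01193 were 7.17 and 7.13 in B4NU and 10.08 and 10.22 in OE, whereas the other 2 were at the floor there. The pANDA arrays and the arrays of both knock-down groups thus differed in which reporter sequences gave signal, and the part of this in the other differences was not tested.

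The largest differences of all lay in rice probe sets without a paired gene. The one that rose most read 2.93 and 2.53 in pANDA and 9.73 and 9.88 in KD wild-type-like (at least 134-fold higher, adjusted p = 0.000392), and 11.43 and 11.81 in KD lethal, while it lay at the floor in B4NU and OE. The one that fell most was bright in pANDA alone, at 8.27 and 8.20, and at the floor on the 8 other arrays (at least 54.0-fold lower in KD wild-type-like, adjusted p = 1.02e-06). Its shared spread came largely from arrays at the floor, where replicates hardly vary, so this p can be too small. Both replicates of each group were alike. Another, the one of the called probe sets without a gene that differed most between OE and B4NU, rose from 6.93 on both arrays to 7.82 and 7.72 (adjusted p = 0.0123) but read 3.54 and 3.53 in KD lethal, and it fell from 10.08 and 9.96 in B4NU to 2.54 and 2.44 in OE.

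**Figure D4:**
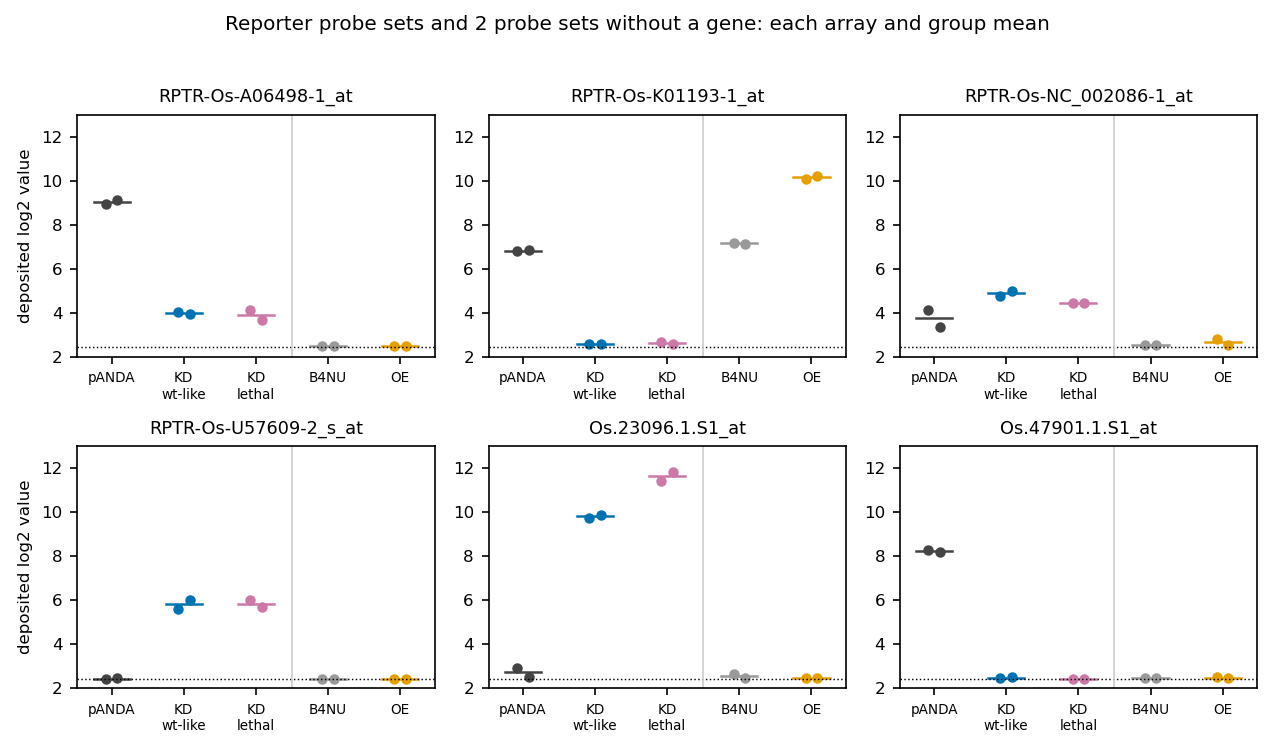
Deposited log2 value of each array (points) and group mean (bars) for the 4 reporter probe sets above the floor on any array and for 2 rice probe sets without a paired gene. K01193 and A06498 are bright in pANDA and low in both knock-down groups, U57609 and the fifth panel's probe set show the opposite, and the probe set of the last panel is above the floor in pANDA alone.

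The calls were set beside the other transgenic groups. KD lethal and KD wild-type-like share the pANDA arrays, so a shared direction against them is no independent result. Their own difference was tested with the KD wild-type-like arrays by which these probe sets were picked. Counts of that difference are therefore not independent of the picking either. The shares over all probe sets given below include the 65.9% at the floor in both pANDA and KD wild-type-like. Of the 26 probe sets that rose, 15 were called higher and 4 lower in KD lethal (12.2% of all probe sets were called there), and 22 differed between the knock-down groups (11.2% of all probe sets did), 8 with KD lethal higher and 14 with it lower. Of the 54 that fell, 52 were called lower and 2 higher in KD lethal, and 23 differed between the knock-down groups, 20 with KD lethal lower. Cht6, JAZ9, DREB1G and GL2 were among the 20. OE and B4NU share no array with this comparison. Of the 26 rises, 10 were called lower and 4 higher in OE (1.4% of all probe sets were called there), and of the 54 falls 11 were called lower and 1 higher. All these calls share 1 estimate of spread per probe set. B4NU and OE were both at the floor for 17 of the 54 falls and 3 of the 26 rises.

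Several directions changed when B4NU stood in for pANDA. With B4NU in place of pANDA, which crosses 2 separately normalized sets, Cht6, JAZ9, DREB1G and OsSAP17 were higher instead of lower in KD wild-type-like, by 2.00, 1.30, at least 4.44 (B4NU at the floor) and 1.34 (log2). BURP16 and MS, which rose against pANDA, differed from B4NU by -0.10 and -0.13 without passing (adjusted p = 0.856 and 0.459). RAB21 kept its direction, with a difference of 4.30. For 32 of the 54 falls, and 10 of the 26 rises, the B4NU mean lay nearer to KD wild-type-like than to pANDA or beyond it. Vector and normalization set cannot be told apart there.

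**Figure D5:**
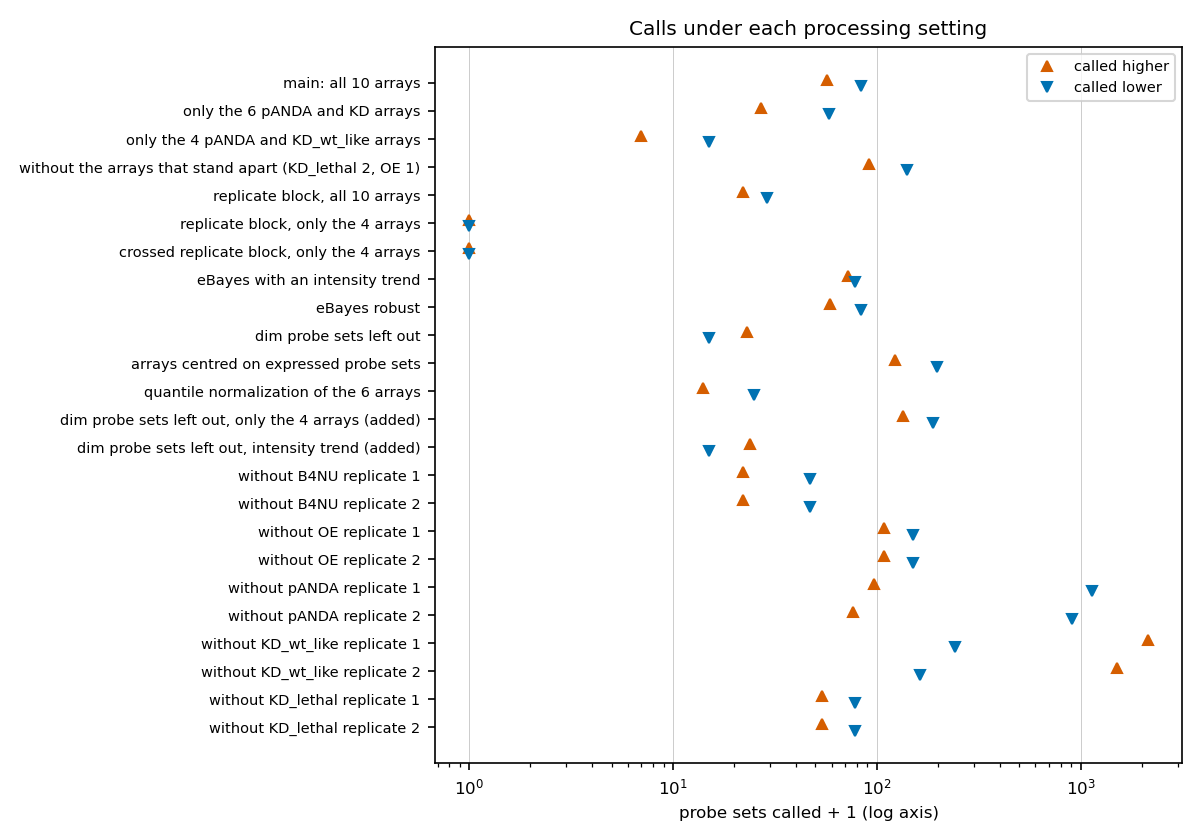
Number of probe sets called higher (triangles up) and lower (triangles down) in KD wild-type-like against pANDA under each setting with pANDA as control, plotted as the count plus 1 on a log axis. The counts run from 0 with a replicate block on 4 arrays to 2380 without KD wild-type-like replicate 1, and the split turns between the settings that leave out a pANDA array and those that leave out a knock-down array.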

How the data were processed

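Log2 values per probe set, as deposited by the authors in a single table of 10 arrays, were used. The tools named in the submitters' processing notes are GCOS and, in version 1.4.1.46, Affymetrix Expression Console. The summarization method is not given in these sources, and the log2 scale was read from the range of the values. The 6 pANDA and KD arrays (lowest value 2.441) and the 4 B4NU and OE arrays (2.440) shared no identical values across sets and 17712 to 19202 within the first, and were treated as normalized separately. No further normalization was applied. Of 57381 probe sets, 123 controls were left out. The platform annotation paired 22436 of the rest with 1 gene, 95 with several and 34727 with none. Its 17905 genes were all in the RefSeq table, and 2451 have a name.

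A model with a coefficient per group was fitted to all 10 arrays with limma 3.58.1 in R 4.3.3 (eBayes without trend, two-sided, 5 residual and 0.472 prior degrees of freedom), with Benjamini-Hochberg adjustment over 57258 probe sets and calls at an adjusted p under 0.05. A fold against a group at the floor uses that group's mean and is a lower bound. Where some groups lie at the floor, the shared spread comes partly from arrays that hardly vary, so the SE and p can be too small. Arrays give no count of depth, so their number limits precision. Whether the replicates come from separate lines is not stated. In simulated data, log2 changes of 1, 2 and 4 were recovered in 6 of 67, 21 of 67 and 44 of 66 probe sets, beside 5 false calls. Those data gave every group the same pooled spread per probe set.

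The members and gene lists were chosen with earlier results of these data known. Wrongly matched genes were taken out of the lists after the annotation was seen, and GL2 (out of 3 lists through shared synonyms) and 4 TIFY genes (out of the JAZ list) after values were seen. Of several probe sets of a listed gene, the one with the highest mean stands for it. Genes are named where, among calls paired with 1 gene, above the floor and without overlap, they had the 15 largest rises or the 15 largest falls (at most 2 genes with an identifier alone each way), and so are called list members and up to 3 uncalled members of a list with the smallest p. Others, such as list members shown for their level or as markers, OsSAP17, GL2 and the probe sets without a gene, were chosen after values were seen. Deviations of pANDA and KD wild-type-like arrays with the same replicate number correlated at 0.075, and the labels do not say that numbers pair samples, so they were not taken as pairs.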

Additional observations from a re-analysis of the deposited data

Results flagged for a closer look

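OsSAP17 moved in opposite directions in the knock-down groups against the shared pANDA arrays. It fell by 0.54 in KD wild-type-like and was higher by 0.28 in KD lethal, where it read 7.38 and 7.48, and the test of the difference between the groups gave 0.82 (log2; limma, adjusted p = 0.000485).

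The probe set without a paired gene that differed most between OE and B4NU did so with the opposite signs. It was higher by 0.84 in KD wild-type-like and lower by 3.40 in KD lethal, with a difference of -4.24 between the groups (limma, adjusted p = 1.62e-05). Both were singled out for opposite signs with a called difference, and the cause was not tested.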

How the results depend on the processing

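The number of called probe sets, 139 in the main setting, moved with most choices. It was 83 with the 6 pANDA and KD arrays, 20 with the 4 arrays compared, 230 without KD lethal replicate 2 and OE replicate 1, 36 (22 higher, 14 lower) without dim probe sets, 318 with arrays centred on expressed probe sets, 37 with quantile normalization of the 6 arrays, and 5756 with B4NU as control. It was 148 with an intensity trend and 141 with a robust prior. Of the 139 main calls, 35 were called in the same direction with the 6 pANDA and KD arrays and 2 with the 4 arrays. Centring kept 51 of them, quantile normalization 16, the fit without dim probe sets 29, the intensity trend 117 and the robust prior 133. The replicate block gave 49 calls on 10 arrays and 0 on 4 arrays (4321 at an unadjusted p under 0.05), and the crossed replicate block gave 0 (4152). Settings chosen after the data were seen gave 321 calls (133 higher, 188 lower) without dim probe sets on the 4 arrays and 37 with dim probe sets left out and an intensity trend. Leaving out 1 array gave 67 to 2380 calls: 67 when a B4NU array was left out, 257 for an OE array, 130 for a KD lethal array, 1233 for pANDA replicate 1, 986 for pANDA replicate 2, 2380 for KD wild-type-like replicate 1 and 1668 for its replicate 2. Without each of the 10 arrays in turn all 139 calls kept their sign. This was fixed in advance, since their groups did not overlap. A compared group reduced to 1 array has no spread of its own, so calls kept in such fits are not counted here. The causes were not tested.

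With pANDA as control most settings could not turn the sign of a named result, since they left the difference of group means unchanged. Leaving out an array of the compared groups could not either, since the groups of every call did not overlap. Centring, quantile normalization and a further probe set could have, but under no setting run did a named result turn its sign. With B4NU as control 11 did: BURP16 (-0.10), Cht6 (2.00), JAZ9 (1.30), DREB1G (4.44), OsTPP4 (0.08), MS (-0.13), OsSAP17 (1.34), GL2 (0.08), the probe set without a gene that fell most (0.02), RPTR-Os-A06498-1_at (1.49) and the probe set without a gene that differed most between OE and B4NU (-2.25). OsTPP4 and the probe set that fell most lay at the floor in both groups there, so their signs carry no information. With only the 4 arrays, 20 of the 22 named results lost their call (RAB21 adjusted p = 0.0517), and all 22 did so with a replicate block on them.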
